A study of Zea mays with 8 samples.

Results

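In maize leaf 6, 63 loci of the 43110 in the deposited table were at least about 2-fold higher at low than at high nitrogen in both growth zones. They were chosen on measured values. A locus was a member when the difference of the group means of log2(FPKM + 1), low minus high nitrogen, was at least 1 in each zone, when both low nitrogen libraries lay above both high nitrogen libraries in each zone, and when it averaged at least 3 FPKM in both low nitrogen groups. FPKM stands for fragments per kilobase of transcript, scaled to sequencing depth, and is a level per length. All 63 also passed the filter of a mean of 1 FPKM in at least 1 group that left 24706 loci for testing. A further locus that met the conditions was left out by the rule and was not analysed here. The size and direction of the members' nitrogen change are therefore fixed by their choice and are given as a description, with no test.

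RNA was sequenced from the sixth leaf of the maize inbred B73, grown in hydroponic culture, and the series asks how nitrogen shortage bears on leaf growth. The tested supply was low nitrogen (LN, 0.04 mM), set against high nitrogen (HN, 4 mM), and both supplies used the same inbred and culture. The 4 groups were LN division zone, HN division zone, LN elongation zone and HN elongation zone, with 2 libraries each and 8 in all. The labels call these biological replicates and do not say how many plants entered a library or at what age the zones were taken.

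A grass leaf grows from its base. Cells divide in the division zone, pass into the elongation zone, where they lengthen without dividing, and later mature and green. Nitrogen is needed for amino acids, nucleic acids and chlorophyll, and plants short of it slow leaf growth and move nitrogen out of older tissue.

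The libraries summed to between 652957 and 1113553 FPKM and listed 21136 to 22119 loci at 1 FPKM or more. Absolute depth is unknown, since no source used here gives the number of reads. The 2 HN elongation libraries were the least alike (Pearson's r of log2 levels across the tested loci, which are not independent, 0.945, against 0.965 to 0.974 in the other groups). The zones carried their labels: 7 of 7 division markers, such as the cyclins cyc1 and cyc3, were lower in the elongation zone by limma with Benjamini-Hochberg adjustment, and 6 of 6 elongation markers, such as the expansin gene expB6, were higher there. Markers of greening blade were lower at LN. Their 7 loci summed to 47.9 and 65.6 FPKM in LN division libraries and to 174 and 171 FPKM in HN division libraries, and to 709 and 474 FPKM in LN elongation libraries and 2034 and 2839 FPKM in HN elongation libraries. The 6 elongation markers summed to 15.8 and 16.9 FPKM in LN division libraries and 25.9 and 29.5 FPKM in HN division libraries. They summed to 1001 and 972 FPKM in LN elongation libraries and 602 and 944 FPKM in HN elongation libraries. The 7 division markers summed to 466 and 535 FPKM in LN division libraries and 386 and 350.7 FPKM in HN division libraries, and to 38.4 and 23.8 FPKM in LN elongation libraries and 63.4 and 98.6 FPKM in HN elongation libraries. Singly they went both ways. In the elongation zone RNRS1, MCM6 and MCM7 had changes, LN minus HN on the log2(FPKM + 1) scale, of -2.21, -1.11 and -1.05. Those of cyc1, cyc3, krp13 and GIF1 were 0.33, 0.43, 0.38 and 0.33. In the division zone GIF1 had 1.68 and RNRS1 0.54, and the other division markers lay between -0.04 and 0.19. Of 4 senescing blade markers 2 were found, the protease genes see1 and see2b, which summed to 48.4 and 53.1 FPKM in LN division libraries and 44.3 and 45.9 FPKM in HN division libraries, and to 193 and 173 FPKM in LN elongation libraries and 78.1 and 93.7 FPKM in HN elongation libraries. These 2 genes differed: see2b had changes of 0.63 in the division and 2.23 in the elongation zone, and see1 of -0.02 and 0.11. The part of these markers in the changes of the members was not tested. In bulk tissue, fewer cells of a type and less RNA per cell cannot be told apart.

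The members were mostly of moderate level and changed less than 4-fold in most cases. Their change on the log2(FPKM + 1) scale had a median of 1.34 in the division zone (range 1.003 to 3.86) and of 1.54 in the elongation zone (range 1.02 to 4.51), beside medians of -0.0079 and 0.065 over all loci tested. The scale understates the change of weakly expressed loci: the median ratio of mean FPKM, LN over HN, was 3.09 in the division zone and 3.17 in the elongation zone. These medians leave out members with a HN mean of 0, Novel_2865 in both zones and Novel_984 in the division zone. Members with a 0 in only 1 HN library of a zone were kept. Member levels had a median of 15.7 FPKM in the LN division zone and 4.95 FPKM in the HN division zone, and of 14.3 FPKM in the LN elongation zone and 4.21 FPKM in the HN elongation zone. Averaged over the LN libraries, 19 members were under 10 FPKM, 37 between 10 and 50, and 7 at 50 or more. A change of 2 or more on the log2 scale was reached by 13 members in the division zone, by 17 in the elongation zone and by 7 in both.

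**Figure D1:**
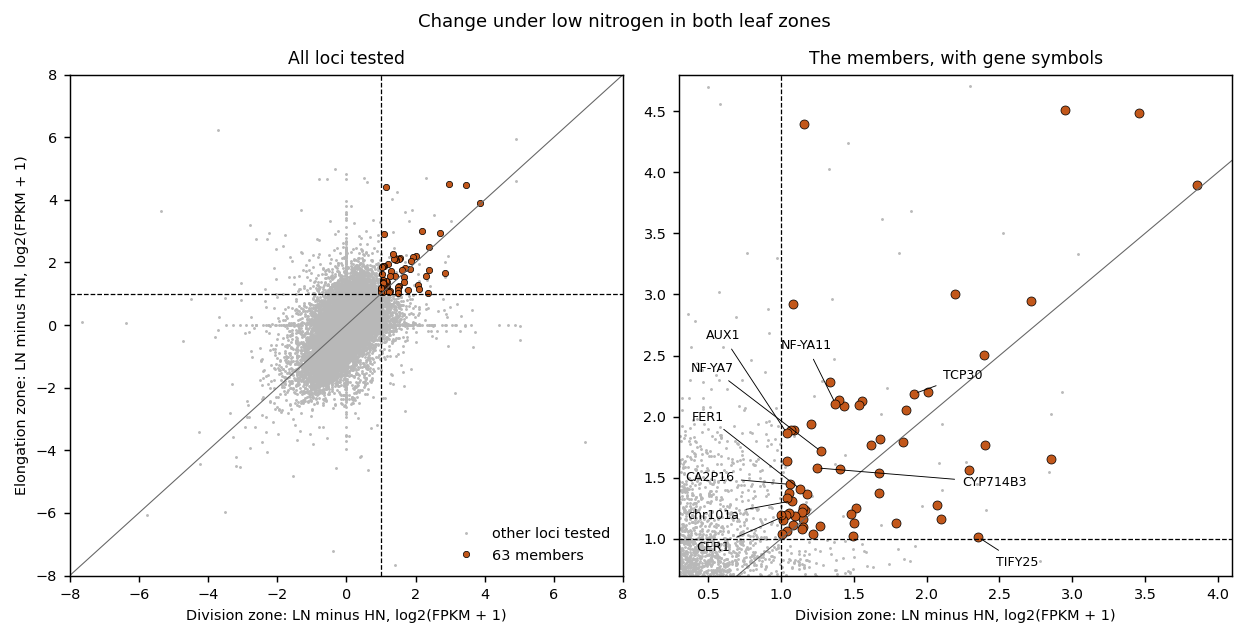
Change under low nitrogen, LN minus HN group mean of log2(FPKM + 1), in the division zone (x axis) and the elongation zone (y axis) for all loci tested (left) and enlarged around the 63 members (right), with dashed lines at the minimum change of 1 and a grey diagonal of equal change. Members occupy the upper right corner by construction, and 45 of them lie above the diagonal.

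By the conditions of the rule applied to 1 zone at a time, 464 loci (1.08% of all loci) were higher at LN in the division zone and 1179 (2.73%) in the elongation zone, and the 63 members are 0.146% of all loci. By limma with Benjamini-Hochberg adjustment over all tested loci, 36 members were called higher in the division zone, where 1.81% of loci were, and 50 in the elongation zone, where 9.86% were. In both zones 35 members were called, against 0.591% of tested loci, and 12 members were called in neither. The rule used this contrast, so nothing is read from these counts. They also rest on few libraries: without single libraries the calls changed strongly, for members and for all tested loci alike. Calls in the division zone were fewest without a division library, and those in the elongation zone without a LN elongation library. The members' median change without 1 library was 1.34 to 1.42 in the division zone and 1.48 to 1.55 in the elongation zone. The number of loci that met the rule was 142 without LN division replicate 2 and 96 without HN elongation replicate 2. The threshold cut through a continuous range: 33 members had a smaller change between 1 and 1.2, and 104 loci that met every other condition had one between 0.8 and 1. Just inside lay Novel_3687 (1.003 in the division and 1.19 in the elongation zone), Novel_1489 (1.01 and 1.04) and GRMZM2G312838 (1.01 and 1.15). Just outside lay GRMZM2G114778 (0.9999 and 1.27), GRMZM2G465257 (0.997 and 1.64) and GRMZM2G083555 (0.996 and 1.34). At the level minimum, the lower LN mean was 3.003 FPKM for the locus XLOC_031351, 3.06 FPKM for GRMZM2G059985 and 3.57 FPKM for GRMZM5G870629, all inside. The zinc finger homeodomain gene ZHD13 was outside with 2.75 FPKM, as were Novel_3844 with 2.29 FPKM and Novel_79 with 1.97 FPKM.

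Of the members, 10 had a gene symbol, 40 had a gene identifier without an informative name, and 13 had only a number from the authors' assembly, such as Novel_1069. Transcription regulator families account for 5 of the 10. NF-Y is a complex of 3 kinds of subunit that binds CCAAT boxes in promoters, and its NF-YA subunit makes the contact with that sequence. NF-YA messages are targets of the miR169 family, which in Arabidopsis falls under nitrogen starvation. The NF-YA genes among the members were 3: NF-YA11, NF-YA7 and CA2P16, whose symbol comes from the older name of the same subunit.

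NF-YA11 (GRMZM2G165488, chromosome 5, 16480475 to 16484941) had 5.75 and 6.22 FPKM in the LN division zone and 1.81 and 1.58 FPKM in the HN division zone. In the elongation zone it had 13.7 and 13.8 FPKM at LN and 3.32 and 1.72 FPKM at HN. The pairs of LN libraries lay close together, and the change was 1.37 in the division and 2.11 in the elongation zone. NF-YA7 (GRMZM2G040349, chromosome 2, 211453392 to 211457855) had 13.7 and 13.0 FPKM in the LN division zone and 4.43 and 5.47 FPKM in the HN division zone. In the elongation zone its levels were 17.7 and 18.4 FPKM at LN and 7.48 and 2.96 FPKM at HN, so that the HN libraries differed more from each other than in the division zone. Its change was 1.27 and 1.72, in that order of zones. CA2P16 (GRMZM2G091964, chromosome 1, 263505895 to 263513358) had 15.0 and 16.8 FPKM in the LN division zone, against 7.83 and 6.42 FPKM in the HN division zone. It had 14.1 and 13.4 FPKM in the LN elongation zone, against 6.02 and 3.18 FPKM in the HN elongation zone, with changes of 1.06 and 1.45.

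Apart from these 3, 5 NF-YA loci were tested. By limma with Benjamini-Hochberg adjustment, 0 of the 5 rose at LN in the division zone, 2 rose in the elongation zone, both named NF-YA4, and 0 fell in either zone. Of the 3 members, NF-YA11 alone was called in the division zone, and all 3 were called in the elongation zone. NF-YA7 and CA2P16 were thus not set apart from the 5 by a call in the division zone. The 2 loci named NF-YA4 missed the minimum change in the division zone, with 0.95 and 0.79, and had 1.48 and 1.65 in the elongation zone. NF-YA14 had changes of 0.72 and 0.99, CA2P7 of 0.12 and 0.76, and CA2P12 of 0.13 and 0.08, none of them called. The median change of the 5 was 0.72 in the division and 0.99 in the elongation zone, beside -0.0079 and 0.065 over all loci tested.

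TCP30 belongs to the TCP transcription factors, a plant family whose members regulate cell proliferation and growth in leaves and other organs. TCP30 (GRMZM2G166946, chromosome 3, 194948684 to 194951389) had 3.13 and 4.60 FPKM in the LN division zone and 0.208 and 0.349 FPKM in the HN division zone. It had 11.8 and 9.85 FPKM in the LN elongation zone and 0.954 and 2.43 FPKM in the HN elongation zone. This gives ratios of 13.9 and 6.40 from low HN levels, and changes of 1.91 and 2.19, the largest smaller change among the 10 members with a symbol. On a TCP list added after the members were known, none of the 6 other loci tested was called by limma with Benjamini-Hochberg adjustment in either zone. Their changes ranged in the division zone between -3.06 (TCP20) and 1.03 (TCP12).

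TIFY25, also named ZIM28, carries the TIFY motif of proteins to which the JAZ repressors of the jasmonate response also belong. TIFY25 (GRMZM2G116614, chromosome 7, 121257089 to 121259224) had 15.6 and 18.3 FPKM in the LN division zone and 2.40 and 2.60 FPKM in the HN division zone. It had 3.07 and 9.22 FPKM in the LN elongation zone and 1.64 and 2.86 FPKM in the HN elongation zone, where the lower LN library was close to the higher HN library. The change was 2.35 in the division and 1.02 in the elongation zone. Of the 15 other TIFY loci tested, limma with Benjamini-Hochberg adjustment called 4 higher at LN in the division zone: TIFY4 with 1.91, TIFY28 with 1.73, TIFY9 with 1.69 and TIFY20 with 1.68. In the elongation zone it called TIFY17 alone, with 0.55. There TIFY4, TIFY9, TIFY20 and TIFY28 had changes of 0.10, -0.02, 0 and -0.22 from low levels. The highest elongation library had 1.85 FPKM for TIFY4, 0.129 for TIFY9, 0 for TIFY20 and 0.399 for TIFY28. A response of these loci in that zone can therefore hardly be judged. None of the 15 was called lower, and TIFY25 itself was called in the division zone only.

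AUX1 (GRMZM2G000158, chromosome 6, 80078086 to 80079839) had 6.16 and 6.89 FPKM in the LN division zone and 3.10 and 2.25 FPKM in the HN division zone. It had 7.16 and 7.07 FPKM in the LN elongation zone and 1.53 and 0.966 FPKM in the HN elongation zone, with changes of 1.04 and 1.86. The reference table uses the symbol within a numbered AUX series and lists another locus with the same synonym, so no role is given to it. Of 39 other loci with auxin-related names, limma with Benjamini-Hochberg adjustment called 6 higher and 0 lower at LN in the division zone, and 6 higher and 1 lower in the elongation zone. The 1 lower locus has the identifier ABP1, which matches more than 1 gene of the reference table. Those called higher included PIN1d, an auxin efflux carrier gene, with changes of 0.83 and 0.62, and the auxin response factor ARF13 with 0.68 and 0.69, both below the minimum change of the rule. The medians over the 39 were 0.19 and 0.32. This list was matched by name alone. It holds both ARF1 and arf1, separate loci whose symbols differ only in case, and their roles were not checked.

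**Figure D2:**
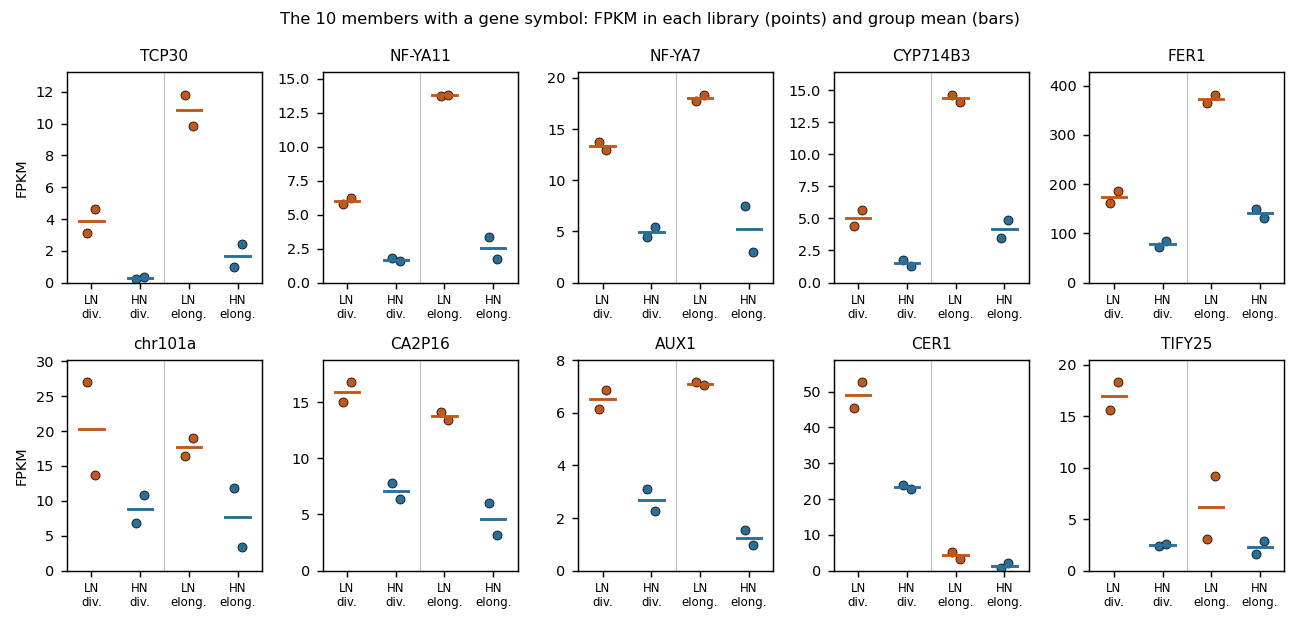
FPKM of the 10 members with a gene symbol in each library (points) with the group mean (bars), LN in orange and HN in blue, division zone left and elongation zone right in each panel. In every panel and zone both LN points lie above both HN points, as the rule required. CER1 and TIFY25 were highest in the LN division zone, and TCP30, NF-YA11, CYP714B3 and FER1 in the LN elongation zone.

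Enzymes were fewer. CYP714B3 is a cytochrome P450 of the subfamily whose rice members hydroxylate gibberellins, the hormones that drive cell growth in the leaf base. CYP714B3 (GRMZM2G106408, chromosome 1, 54731140 to 54737676) had 4.40 and 5.62 FPKM in the LN division zone and 1.75 and 1.30 FPKM in the HN division zone. It had 14.7 and 14.0 FPKM in the LN elongation zone and 3.46 and 4.899 FPKM in the HN elongation zone. Its changes were 1.25 and 1.58, and its ratios 3.29 and 3.43. Of the 5 other gibberellin loci tested, limma with Benjamini-Hochberg adjustment called 0 higher in either zone, 0 lower in the division zone and 2 lower in the elongation zone: CYP88A1, the dwarf3 gene of an oxidase of gibberellin synthesis, with -0.74, and d9, a DELLA repressor of gibberellin signalling, with -0.71. The DELLA gene D8 and the diterpene synthase genes an1 and CPS1 were not called, with changes between -0.24 and 0.40 in the division zone and between -0.49 and -0.15 in the elongation zone. This list was matched by symbol and held only the gibberellin loci named here, so it does not cover the whole pathway. Of the 9 other cytochrome P450 loci tested, 2 were called higher and 1 lower in the division zone, and 1 higher and 5 lower in the elongation zone. The lower ones include the CYP71C genes of benzoxazinoid synthesis, a maize defence pathway, with changes of -1.83 to -3.19 in the elongation zone.

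CER1 is named after the Arabidopsis gene needed to make the alkanes of cuticular wax. The member CER1 locus (GRMZM2G099097, chromosome 4, 171759787 to 171764794) had 45.4 and 52.6 FPKM in the LN division zone and 24.0 and 22.7 FPKM in the HN division zone. It had 5.23 and 3.25 FPKM in the LN elongation zone and 0.628 and 2.11 FPKM in the HN elongation zone, with changes of 1.04 and 1.19. A separate locus with the same symbol, GRMZM2G066578, had the opposite zone pattern. It was listed at 0.0585 and 0 FPKM in the LN division zone and 0.146 and 0.506 FPKM in the HN division zone, and had 15.0 and 17.3 FPKM in the LN elongation zone and 2.49 and 2.05 FPKM in the HN elongation zone. Its change of 2.39 in the elongation zone came with -0.35 in the division zone, so it was no member. Of 7 wax and cutin loci tested other than the member, this 1 was called higher in the elongation zone by limma with Benjamini-Hochberg adjustment, and none was called in the division zone or called lower. The member CER1 locus was itself called in the elongation zone only.

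FER1 codes for ferritin, the plastid protein that stores iron. It had the highest mean level over the 4 LN libraries of all members, while GRMZM2G107003 was higher in the LN division zone. FER1 (chromosome 4, 183760831 to 183763850) had 161 and 185 FPKM in the LN division zone and 71.7 and 85.4 FPKM in the HN division zone. It had 365 and 382 FPKM in the LN elongation zone and 150 and 131 FPKM in the HN elongation zone. The libraries of each group lay close to each other, and the changes were 1.13 and 1.41. On a list of iron genes added after the members were known, none of the 3 other genes was called by limma with Benjamini-Hochberg adjustment in either zone. DMAS1, ysl12 and naat1, genes of phytosiderophore synthesis and metal transport, had changes between -0.11 and 0.25 in the division zone and between -0.50 and -0.04 in the elongation zone.

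The last member with a symbol, chr101a (GRMZM2G071025, chromosome 1, 270315735 to 270325110), had 27.0 and 13.7 FPKM in the LN division zone and 6.85 and 10.8 FPKM in the HN division zone. It had 16.5 and 19.0 FPKM in the LN elongation zone and 11.8 and 3.44 FPKM in the HN elongation zone, a wide spread between libraries with changes of 1.07 and 1.31. By limma with Benjamini-Hochberg adjustment it was called for nitrogen in neither zone. A second locus with the same gene identifier overlaps it and went the other way, with changes of -0.33 and -0.93. It had 27.1 and 25.3 FPKM in the LN division zone and 31.7 and 34.8 FPKM in the HN division zone. It is not known how the authors' counting divided reads between overlapping loci, so the value of chr101a is uncertain.

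None of the 10 members with a symbol belonged to the families listed for growth-regulating factors, YABBY, bHLH, MYB, WRKY, NAC, AP2/ERF, homeobox, bZIP, GRAS and SBP factors, for nitrate, ammonium, phosphate or sugar transporters, or for aquaporins. The transporter lists were short, with 1 nitrate or ammonium locus, 2 phosphate-related loci and 4 sugar transporter loci tested. Members without a symbol could not be placed in any list, so nothing is read from these absences. By limma with Benjamini-Hochberg adjustment, 1.81% of all tested loci rose and 3.27% fell in the division zone, and 9.86% rose and 12.5% fell in the elongation zone. Of 22 growth-regulating factor and GIF loci, 7 rose and 0 fell in the division zone, and 0 rose and 0 fell in the elongation zone. Of 43 MYB loci, 2 rose and 1 fell in the division zone, and 10 rose and 2 fell in the elongation zone. These 2 lists are examples from those without a member, and others differed. Among 20 loci for late embryogenesis abundant proteins, dehydrins and heat shock, 0 rose and 3 fell in the division zone. In the elongation zone 1 of these 20 rose and 6 fell. Among 36 bHLH loci, 7 rose and 1 fell in the division zone, and 2 rose and 2 fell in the elongation zone. A difference between zones was not tested for these lists, which hold only loci with a symbol.

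Among all members, the largest changes belonged to loci without a name, and most of these rested on HN libraries listed at 0. Novel_1069 (chromosome 2, 111403944 to 111414427) had 94.5 and 52.6 FPKM in the LN division zone and 0 and 23.3 FPKM in the HN division zone. It had 112 and 57.8 FPKM in the LN elongation zone and 29.2 and 0 FPKM in the HN elongation zone. A value of 0 in 1 library beside over 20 in its replicate gave it changes of 3.86 and 3.89. GRMZM5G852505 (chromosome 8, 8004098 to 8009580) had 109 and 79.4 FPKM in the LN division zone and 0 and 72.1 FPKM in the HN division zone. It had 121 and 75.0 FPKM in the LN elongation zone and 17.6 and 0 FPKM in the HN elongation zone. Its changes were 3.46 and 4.49, although the higher HN division library lay close to the lower LN division library. A locus with the same identifier overlaps it and had changes of 0.45 and 1.65. Novel_3695 (chromosome 8, 19116866 to 19119113) had 29.7 and 18.6 FPKM in the LN division zone and 12.9 and 0 FPKM in the HN division zone. It had 42.9 and 46.4 FPKM in the LN elongation zone and 0 and 34.1 FPKM in the HN elongation zone, with changes of 2.72 and 2.94. A listed 0 in a table without counts can be a failed estimate, so no ratio is given for these loci.

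Novel_2865 (chromosome 6, 153404916 to 153406134) was listed at 0 in all 4 HN libraries. It had 6.92 and 6.57 FPKM in the LN division zone and 21.7 and 21.9 FPKM in the LN elongation zone, and its changes of 2.95 and 4.51 rest on the pseudocount. Novel_984 (chromosome 2, 185129712 to 185130102) had 4.33 and 4.19 FPKM in the LN division zone, 0 in both HN division libraries, 7.44 and 10.4 FPKM in the LN elongation zone, and 2.0001 and 0 FPKM in the HN elongation zone. In all, 8 members had a value at or near 0 in at least 1 HN library, and 0 members had one in a LN library. The other 2 of the 7 members with a change of 2 or more in both zones had no zeros and were chosen for mention after their values were seen. GRMZM5G809195 had 30.4 and 39.4 FPKM in the LN division zone and 7.06 and 6.52 FPKM in the HN division zone, and 58.2 and 53.7 FPKM in the LN elongation zone and 7.04 and 5.28 FPKM in the HN elongation zone. GRMZM5G825515 had 14.7 and 17.5 FPKM in the LN division zone and 3.43 and 3.07 FPKM in the HN division zone, and 25.1 and 26.3 FPKM in the LN elongation zone and 5.32 and 4.34 FPKM in the HN elongation zone. In both of these the replicates lay close together in every group.

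The 5 members with the highest levels at LN were FER1, Novel_2086, GRMZM2G107003, GRMZM5G852505 and Novel_1069. Novel_2086 (chromosome 4, 176472246 to 176473032) had 221 and 116 FPKM in the LN division zone and 55.6 and 91.3 FPKM in the HN division zone. It had 125 and 219 FPKM in the LN elongation zone and 41.0 and 0.489 FPKM in the HN elongation zone. The size of its change of 4.40 in the elongation zone, against 1.16 in the division zone, was raised by the second HN elongation library. The first, with 41.0 FPKM, also lay below both LN elongation libraries. Novel_2086 lies 122 bp from another member, Novel_2279, whose changes were 1.08 and 2.92 and whose second HN elongation library was also the lower. Whether these neighbours are separate transcripts was not tested. GRMZM2G107003 (chromosome 2, 41221411 to 41222584) had 176 and 227 FPKM in the LN division zone and 45.5 and 35.2 FPKM in the HN division zone, and 57.5 and 40.3 FPKM in the LN elongation zone and 9.22 and 26.1 FPKM in the HN elongation zone. Its changes were 2.29 and 1.56.

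The difference between zones, averaged over both supplies, is a separate contrast from the nitrogen changes that chose the members and was tested. It is not free of the rule, which also set a minimum level in both LN groups and required the libraries to separate. The counts of members called are therefore a description beside the shares of other loci. By limma with Benjamini-Hochberg adjustment over 24706 loci, 28 of the 63 members (44.4%) differed between elongation and division zone, against 58.2% of all tested loci. Among the 15575 loci with at least 3 FPKM in both LN groups, 55.4% were called. Of the 28, 15 were higher in the elongation zone (30.5% of all tested loci, and 28.8% of those at the level minimum) and 13 lower (27.7% and 26.6%), and 35 were not called. The median elongation minus division difference was -0.06 for members and 0.02 for all tested loci. Its median size regardless of sign was 0.59 for members, 0.58 for all tested loci and 0.49 for loci at the same level minimum. Elongation lay above division at both supplies in 24 members, division above elongation at both in 26, and the order differed between supplies in 13. Without HN elongation replicate 1 more members, and more of all tested loci, were called lower. The median difference was then -0.24 for members and 0.02 for all tested loci.

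**Figure D3:**
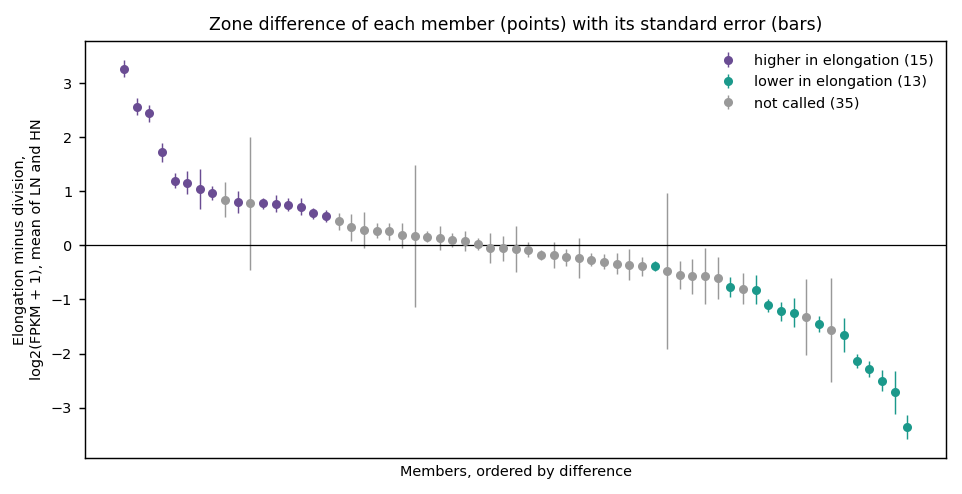
Elongation minus division difference of log2(FPKM + 1), averaged over LN and HN, for each of the 63 members ordered by size (points) with its standard error from limma (bars); purple points were called higher in the elongation zone (15), green points lower (13) and grey points were not called (35). The differences run from 3.27 to -3.36, and the 3 longest bars belong to members with a listed 0 in HN libraries.

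Among the members with a symbol, CYP714B3 was higher in the elongation zone by 1.19 ± 0.14 (SE; limma with Benjamini-Hochberg adjustment, adjusted p = 0.00042), TCP30 by 1.16 ± 0.21 (adjusted p = 0.00296), FER1 by 0.97 ± 0.13 (adjusted p = 0.000684) and NF-YA11 by 0.72 ± 0.16 (adjusted p = 0.00774). In these 4, both elongation libraries lay above both division libraries at each supply, except in NF-YA11 at HN, where 1.72 FPKM in an elongation library lay below 1.81 FPKM in a division library. CER1 was lower in the elongation zone, with a limma difference of -3.36 ± 0.23 (adjusted p = 3.67e-05), the largest in size of all members. The other 5 were not called by limma with Benjamini-Hochberg adjustment: TIFY25 had -0.80 ± 0.29 (adjusted p = 0.0509), CA2P16 -0.38 ± 0.18 (adjusted p = 0.101), AUX1 -0.30 ± 0.14 (adjusted p = 0.099), NF-YA7 0.19 ± 0.23 (adjusted p = 0.513) and chr101a -0.24 ± 0.37 (adjusted p = 0.606). TIFY25 was called lower with libraries scaled to equal totals or equal upper quartiles, with a replicate block and without LN elongation replicate 2. CA2P16 (-0.57) and AUX1 (-0.39) were called lower without HN elongation replicate 1, and NF-YA7 was called higher without HN elongation replicate 2 (0.46) and turned to -0.087 without replicate 1. The difference of chr101a turned to 0.14 without HN elongation replicate 2.

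The largest positive difference belonged to Novel_2397 (chromosome 5, 83169622 to 83171762). It had 45.9 and 40.6 FPKM in the LN elongation zone and 4.52 and 2.93 FPKM in the LN division zone, and 12.2 and 11.3 FPKM in the HN elongation zone and 0.539 and 0.101 FPKM in the HN division zone. The limma difference was 3.27 ± 0.16 (adjusted p = 1.12e-05). GRMZM2G065829 (chromosome 8, 141446174 to 141448103) had 65.2 and 53.0 FPKM in the LN elongation zone, 9.44 and 12.6 FPKM in the LN division zone, 25.1 and 32.1 FPKM in the HN elongation zone and 3.65 and 2.82 FPKM in the HN division zone. GRMZM2G145562 (chromosome 9, 138563606 to 138566263) had 73.1 and 59.1 FPKM in the LN elongation zone, 14.1 and 16.3 FPKM in the LN division zone, 21.3 and 33.0 FPKM in the HN elongation zone and 2.85 and 2.86 FPKM in the HN division zone. In each of these 3, every elongation library lay above every division library of the same supply, and HN elongation exceeded LN division. GRMZM2G323013 (chromosome 5, 208973869 to 208978095) followed with a limma difference of 1.72 ± 0.17 (adjusted p = 0.000191), and had 15.8 and 12.7 FPKM in the LN elongation zone and 3.08 and 4.12 FPKM in the LN division zone.

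Below CER1, the largest negative difference was that of AC203307.4_FG001 (chromosome 6, 157213646 to 157213969), with -2.72 ± 0.40 by limma (adjusted p = 0.00112). It had 2.46 and 6.49 FPKM in the LN elongation zone and 22.1 and 43.5 FPKM in the LN division zone, and 1.10 and 0 FPKM in the HN elongation zone and 12.8 and 6.25 FPKM in the HN division zone. GRMZM2G145390 (chromosome 3, 161601616 to 161605268) had 5.50 and 5.05 FPKM in the LN elongation zone, 32.6 and 37.8 FPKM in the LN division zone, 1.19 and 2.91 FPKM in the HN elongation zone and 16.9 and 13.9 FPKM in the HN division zone. GRMZM2G702036 (chromosome 3, 184270041 to 184279182) had 7.66 and 6.58 FPKM in the LN elongation zone, 33.4 and 42.4 FPKM in the LN division zone, 2.98 and 2.03 FPKM in the HN elongation zone and 18.3 and 14.8 FPKM in the HN division zone. GRMZM5G870629 (chromosome 1, 228111576 to 228115331) had 4.20 and 2.93 FPKM in the LN elongation zone, 21.6 and 21.8 FPKM in the LN division zone, 1.28 and 0.878 FPKM in the HN elongation zone and 7.38 and 6.66 FPKM in the HN division zone. In these 4 and in CER1, both HN division libraries lay above both LN elongation libraries, except in AC203307.4_FG001, where 6.25 FPKM in a HN division library lay below 6.49 FPKM in a LN elongation library. GRMZM2G107003, the strongly expressed locus described above, was also called lower, with -1.67 ± 0.31 by limma (adjusted p = 0.00355).

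**Figure D4:**
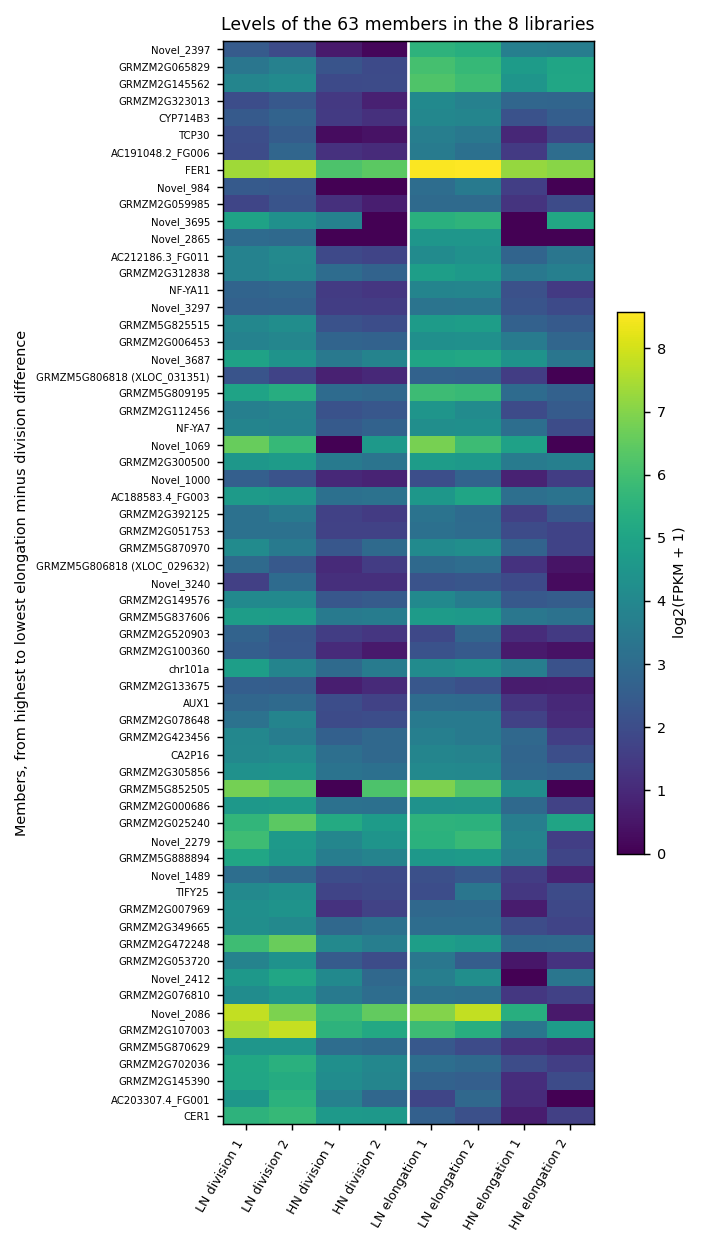
Levels of the 63 members, log2(FPKM + 1) as colour, in the 8 libraries (columns, division zone left of the white line and elongation zone right of it, LN before HN in each), with members ordered from the highest to the lowest elongation minus division difference. FER1 forms the brightest row, members at the top are brighter in the elongation zone and those at the bottom in the division zone, and single dark cells mark HN libraries listed at 0.

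Set side by side, the nitrogen changes of a member in the 2 zones were of similar size in most cases: they lay within 0.5 of each other on the log2 scale in 40 members and 1 or more apart in 6. The change was larger in the elongation zone in 45 members and larger in the division zone in 18. The rule set the same minimum in both zones and used these values, so the difference between zones was not tested. TIFY25, with 2.35 in the division and 1.02 in the elongation zone, and GRMZM2G007969, with 2.85 and 1.65 and chosen for mention after its values were seen, were examples of the larger division change. Novel_2086 and Novel_2279, with their single low HN elongation library, were examples of the larger elongation change.

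Replicates of members spread most in the HN elongation zone. The median SD between the 2 libraries, on the log2(FPKM + 1) scale, was 0.12 for members and 0.10 for all tested loci in the LN elongation zone and 0.48 for members and 0.27 for all tested loci in the HN elongation zone. In the division zone it was 0.21 for members and 0.15 for all tested loci at LN, and 0.18 for members and 0.12 for all tested loci at HN. In the HN elongation zone, the second library was below the first in 35 members (55.6%, against 44.5% of tested loci). The second was under 0.5 times the first in 18 members and over 2 times the first in 12. The shares of all tested loci were not computed for these 2 counts, so nothing particular to the members is read from them. The part of this spread in the members' changes was not tested.

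**Figure D5:**
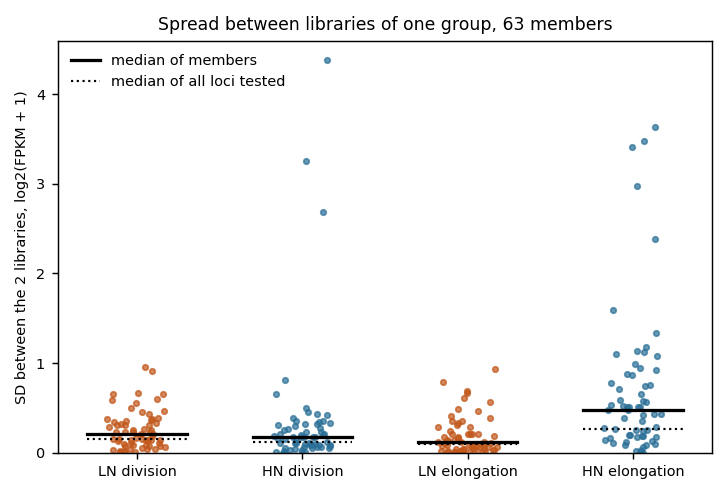
SD between the 2 libraries of each group, on the log2(FPKM + 1) scale, for each of the 63 members (points, with horizontal scatter for visibility), with the median of members (solid line) and of all tested loci (dotted line). The medians of members are 0.21, 0.18, 0.12 and 0.48 in the order of the groups shown, and the points above 2 all lie in HN groups.

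Of the 63, 13 (20.6%) had no gene identifier, against 10.7% of tested loci, and 12 (19.0%) shared a span with another locus, against 13.7%. The median span was 2929 bp for members and 3907 bp for tested loci, and 5 members spanned 500 bp or less. By identifier, 35 members matched a RefSeq gene, among them 1 transcribed pseudogene (GRMZM5G888894) and 1 noncoding RNA gene (GRMZM2G423456). Members lay on chromosomes 1 to 9, with 11 on chromosome 1 (17.5%, against 15.4% of tested loci) and 3 on chromosome 9 (4.76%, against 7.47%). Only 4 members lay within 100000 bp of another: Novel_2086 with Novel_2279, and the loci XLOC_029632 and XLOC_031351, which overlap and carry the same identifier GRMZM5G806818 but are separate entries of the table. These shares are descriptions, with no test. Without members that share a span or have a 0, 46 remained, 39 of them with a gene identifier.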

How the data were processed

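Each library's level per assembled locus was read from 1 table deposited by the authors. The authors deposited values that were taken as FPKM, levels already normalised by them for length and depth; this unit was judged from the values (not whole numbers, unequal column totals), since neither header nor labels state it. TopHat2, edgeR and the build B73 RefGen_v3 are named in the submitters' processing notes; versions, roles and the normalisation are not given there. The table's 44070 lines held 43110 loci, 865 of them with several identifiers on repeated lines, each kept once. Starts, counted from 0 in the table, are given 1-based. Names came by identifier from a RefSeq table of assembly Zm-B73-REFERENCE-NAM-5.0 (18777 loci matched, 2751 with an informative name), whose coordinates were not used.

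Tests covered loci whose mean reached 1 FPKM in some group and used limma 3.58.1 (R 4.3.3; trend) on log2(FPKM + 1), in 4 group means over 8 libraries with 4 residual degrees of freedom, Benjamini-Hochberg adjustment and a threshold of 0.05. The procedure was tested on simulated data. With 2 libraries a group, p-values measure only the spread between these libraries. Low values fell into steps too rarely (12.4 to 23.3%) to recover reads; rough depths relative to HN division replicate 1 were 0.763 to 1.24. Named members were those with a symbol, the 5 with the largest smaller change, the 5 with the highest LN level, up to 5 per direction with the largest called zone difference, members of a listed family holding at least 2, and the 3 loci nearest each threshold; others are marked where named. Members and gene lists were chosen with earlier results of these data known. Other lists had no member, or are given with the members above. Alternatives were another pseudocount, filter, scaling, rule, replicate block and each library left out. Python 3.11.15 with pandas 2.3.3 was used for tables. No sequences were used here.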

Additional observations from a re-analysis of the deposited data

How the results depend on the processing

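How many loci met the rule depended on the processing, and the cause was not tested. Instead of 63, it was 117 with a pseudocount of 0.1, 18 with a minimum change of 1.5, 227 with libraries scaled to equal totals and 226 with totals over spans above 500 bp, chosen after seeing the data. Equal totals moved the median change of all loci by 0.15 (division) and 0.37 (elongation), and the members' median exceeded that of all loci by 1.39 and 1.44. It also moved the share of higher among called loci to 62.2% and 77.6%, against 35.6% and 44.1%. Leaving out 1 library gave 55 to 142 loci: 142 (52 of the 63 kept) without LN division replicate 2, 96 (55 kept) without HN elongation replicate 2. The fewest members were kept without HN elongation replicate 1, with 47 of the 63 among 55 loci. All 63 remained under the pseudocount of 0.1, equal totals and no level minimum (70 loci), and 61 under equal upper quartiles (68 loci). The 28 zone calls of members became 25 to 39 without 1 library. The 15 higher ones became 13 to 20, and the 13 lower ones 12 to 21, with 21 without HN elongation replicate 1. Members called by limma for nitrogen, 36 in the division zone, became 2 to 51 without 1 library: 2 without either HN division library, 4 without either LN division library and 16 without either LN elongation library. The 50 in the elongation zone became 11 to 53 without 1 library: 11 and 23 without LN elongation replicate 1 and 2. They became 3 when only the 2 elongation groups were fitted. Leaving 1 library in a group assumes that it varies like the others. With a replicate block, 29 members were called between zones (15 higher, 14 lower), where 7290 of 24706 tested loci were higher and 6528 lower. The block fit called 25 members for nitrogen in the division zone and 47 in the elongation zone, where 159 and 1688 loci were higher. The labels give no pairing. Deviations of same-numbered libraries correlated by -0.19 to 0.33 between groups, the highest between LN division and HN elongation. With 2 libraries a group these values cannot show whether same-numbered libraries share a batch, and the main fit took no pairing. For the 30 members named by rule, 365 zone values under the alternatives kept direction and call, 12 gained a call, 1 lost it (GRMZM2G059985 without LN division replicate 1) and 12, in 6 loci not called, turned sign. With a pseudocount of 0.1 the locus XLOC_031351 had -0.12 instead of 0.28. Without 1 library the zone difference ran between -1.06 and 1.40 in Novel_1069, -2.02 and 1.07 in GRMZM5G852505, -0.50 and 2.06 in Novel_3695, -0.62 and 0.14 in chr101a, -0.087 and 0.46 in NF-YA7 and -0.10 and 0.67 in XLOC_031351. TIFY25 gained its call under both scalings, the block and without LN elongation replicate 2. With 2 libraries a group and unknown depth, small differences were not detectable.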
